A study of Mus musculus with 4 samples.

Results

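Among the CD4 T cells of the mouse colon, regulatory T cells (Tregs) were selected on a count of Foxp3, which encodes their defining transcription factor, and divided by whether a transcript of Nr4a1 was counted in them. Barcodes had to hold 500 counts or more, 200 genes or more and less than 20% mitochondrial counts, which left 1050 of 1985. Of these, 332 had at least 1 Foxp3 count, and 123 of the 332 also had at least 1 Nr4a1 count (Nr4a1-positive Tregs), against 209 with none (Nr4a1-negative Tregs). Both genes chose the cells and are therefore no result. All cells came from male B6 mice aged 6 weeks, from 4 numbered samples of 1 group called Btheta_colon. No other group of mice is used here. They were taken from enzymatically digested colon lamina propria and sorted on CD45, TCRb and CD4, and their RNA was profiled by inDrops, which captures the RNA of single cells in droplets with barcoded primers. The deposited counts form 1 table whose barcodes name no sample, so the table was handled as 1 sample and no test between mice was possible. Every interval below is a 95% interval that covers counting error only. It covers neither the spread between mice nor differences between cells beyond counting.

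Nr4a1 encodes the orphan nuclear receptor Nur77, an immediate early gene that T cells switch on when the antigen receptor is engaged. The receptor signals through CD3, Lck and ZAP-70 into calcium and NFAT, the MAP kinases that feed AP-1 and EGR1, and NF-kB, and each branch also induces its own brakes. Tregs recognise self and microbial antigens in the gut, and Nur77 reporters are widely used to mark T cells that have recently received a receptor signal. NR4A factors are also known to sustain Foxp3 expression.

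The start of Nr4a1 and of 3 other genes that stood higher beside it holds a motif of signal-responsive promoters, the cyclic AMP response element TGACGTCA, bound by CREB and ATF factors, or its core TGACG. The 3 other genes were picked by hand and not by a rule, and Areg is outside the receptor-signal lists described below. The 250 bases before the start are printed for them from RefSeq (build GRCm38.p6), 5′ to 3′ along the strand of the gene, and capitals mark the element or its core on either strand (CGTCA is the core read on the other strand). They are Nr4a1 at chr15:101266596-101266845 (plus strand), Btg2 at chr1:134079156-134079405 (minus strand), Fosb at chr7:19310046-19310295 (minus strand) and Areg at chr5:91139349-91139598 (plus strand).
Nr4a1: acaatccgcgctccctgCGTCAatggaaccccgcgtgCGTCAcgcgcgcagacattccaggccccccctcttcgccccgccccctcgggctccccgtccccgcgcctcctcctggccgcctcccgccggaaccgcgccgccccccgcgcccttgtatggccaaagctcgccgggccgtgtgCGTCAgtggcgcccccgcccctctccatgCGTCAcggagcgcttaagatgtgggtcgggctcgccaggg
Btg2: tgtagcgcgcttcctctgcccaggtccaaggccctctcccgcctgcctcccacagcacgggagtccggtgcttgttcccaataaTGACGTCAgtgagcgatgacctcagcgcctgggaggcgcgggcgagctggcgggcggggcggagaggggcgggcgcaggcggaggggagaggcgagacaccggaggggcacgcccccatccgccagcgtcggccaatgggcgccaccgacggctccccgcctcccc
Fosb: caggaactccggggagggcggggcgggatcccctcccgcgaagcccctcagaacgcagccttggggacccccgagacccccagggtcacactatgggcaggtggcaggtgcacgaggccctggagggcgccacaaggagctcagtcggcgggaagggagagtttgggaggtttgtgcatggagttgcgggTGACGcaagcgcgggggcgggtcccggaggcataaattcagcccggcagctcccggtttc
Areg: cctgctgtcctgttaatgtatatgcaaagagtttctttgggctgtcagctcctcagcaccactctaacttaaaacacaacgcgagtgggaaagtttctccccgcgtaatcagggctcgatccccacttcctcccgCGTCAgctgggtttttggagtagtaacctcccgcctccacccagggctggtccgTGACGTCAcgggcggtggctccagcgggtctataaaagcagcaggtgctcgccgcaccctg
The Nr4a1 window held 4 cores, beginning 233, 213, 69 and 40 bases before the start, while at least 4 cores were found in 45 of the 32851 mouse promoters of this length (0.137%). Btg2 held 1 full element and Areg 1 full element and 1 further core. Fosb held 1 core, 60 bases before its start. Among the 21 genes of the receptor-signal lists described below that were at least 1.5-fold higher in the Nr4a1-positive Tregs, 17 were matched to 20 promoters. Egr1, Cd83, Ier2 and Bhlhe40 had no matched promoter. The full element lay in 2 of the 20 (Btg2 and Nfkbid), against 1.55% of all promoters, and the core in 7, against 17.8%. An AP-1 site (TGANTCA) lay in 2, against 6.75% of all, an NF-kB site in 7, against 7.25%, and the NR4A monomer site AAAGGTCA in 0, against 1.34%, each searched on both strands. These are matches of letters in this window and not measured binding.

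The Nr4a1-positive Tregs were the more deeply counted cells. They held a median of 1486 counts (quartiles 1069.5 to 2103) and 715 genes, against 1212 counts (976 to 1769) and 622 genes in the Nr4a1-negative Tregs, and together 209526 against 305157 counts. After each cell was thinned to 500 counts the medians were 349 and 341 genes. Mitochondrial counts (4.16% against 4.12%) and ribosomal protein counts (14.3% against 14.7%) were at similar medians. Foxp3 stood at 1312 against 1367 CPM, a gene's counts scaled to the total of its side. A Nr4a1 count was found in 37.0% of Foxp3-positive cells (exact binomial interval 31.8 to 42.5) and in 24.1% of the 718 Foxp3-negative cells (21.0 to 27.4), with median depths of 1304.5 and 1215 counts. The share was higher in deeper cells of both kinds, running from 28.6% to 44.6% of Foxp3-positive and from 16.3% to 34.6% of Foxp3-negative cells between the lowest and the highest of 3 depth classes. With Nr4a1 itself read after thinning, the shares were 22.6% (18.2 to 27.5) and 13.4% (10.97 to 16.1). Of the 123 Nr4a1-positive Tregs, 43 had exactly 1 Nr4a1 count, 31 had 2 and the others 3 to 10. A cell without a count is a cell in which Nr4a1 was not detected at its depth.

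**Figure D1:**
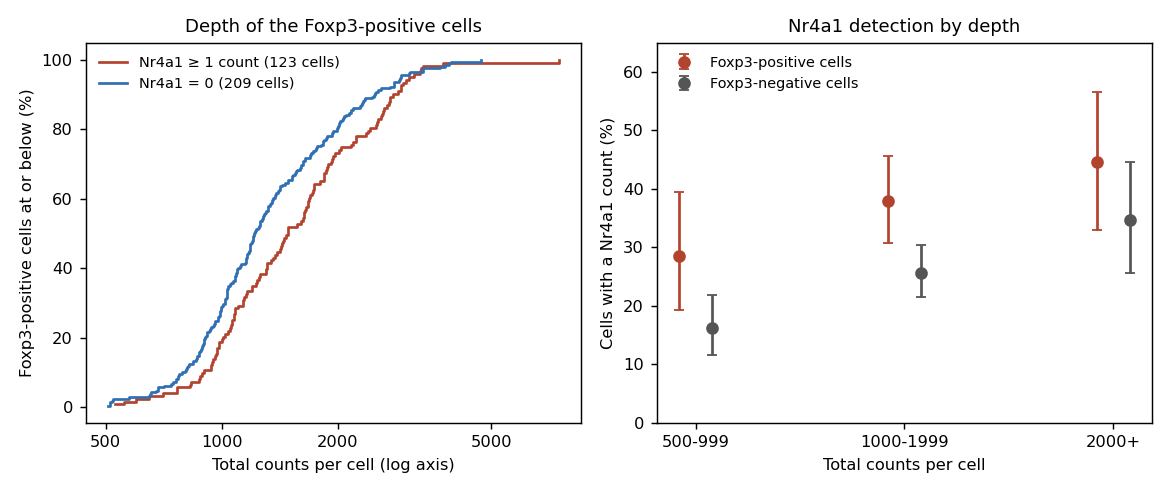
Left, cumulative share of Foxp3-positive cells (%) at or below a total count per cell (log axis), for the 123 Nr4a1-positive (red) and 209 Nr4a1-negative (blue) cells. Right, share of cells with a Nr4a1 count (%) by total counts per cell, with exact 95% binomial intervals, for Foxp3-positive (red) and Foxp3-negative (grey) cells. The red curve lies to the right of the blue over most of its course, and both shares are higher in deeper cells, up to 44.6% and 34.6%.

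Both sides carried the markers of Tregs. Ctla4 was counted in 82.1% of Nr4a1-positive and 72.2% of Nr4a1-negative Tregs, against 41.8% of Foxp3-negative cells, Ikzf2 in 57.7% and 45.5%, against 26.7%, and Il2ra in 30.1% and 26.3%, against 12.8%. Markers of other cell types were counted on both sides. The 10 B and plasma cell markers summed to 8 counts over the Nr4a1-positive and 14 over the Nr4a1-negative Tregs, with Cd79a and Ms4a1 at 0. The 10 markers of CD8, gamma delta, innate lymphoid and NK cells summed to 21 against 10 counts (Cd8b1 11 against 5, Klrb1c and Ncr1 at 0), in 10 of 123 and 6 of 209 cells, a log2 ratio of summed CPM of 1.61 (0.46 to 2.86). The 13 epithelial markers summed to 24 against 8 counts, in 7 and 6 cells, a ratio of 2.13 (0.93 to 3.49), and 1 Nr4a1-positive cell held 18 of the 24. Both sums were thus higher in the Nr4a1-positive Tregs, and their part in the results was not tested. The 10 stromal and endothelial markers summed to 14 against 20 counts. Of the 12 myeloid markers, which summed to 87 against 110 counts, Cst3 gave 75 and 94. A myeloid marker was counted in 46 of 123 (37.4%) and 59 of 209 cells (28.2%), and Cst3 alone in 34.1% and 25.8%. At these depths Lyz2, a myeloid gene, was counted in 1 and 2 cells. Without the 19 Tregs (6 positive, 13 negative) that held at least 2 genes of the B, myeloid, epithelial and stromal lists, the medians of the receptor-signal lists kept their sign.

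Levels were compared as the log2 ratio of CPM, Nr4a1-positive over Nr4a1-negative, with an exact conditional interval in parentheses after the ratio. Over 4148 genes with at least 20 counts, the median ratio was -0.02, 2013 genes (48.5%) were higher and 2135 (51.5%) lower in the Nr4a1-positive Tregs. Of these, 595 genes (14.3%) were at least 1.5-fold higher and 676 (16.3%) at least 1.5-fold lower. Among the 1790 genes with at least 50 counts these shares were 7.65% and 9.94%. The gene lists are read against these percentages.

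Egr1 led the NR4A, EGR and IRF group of receptor-signal factors, and the rest of that group was divided. Egr1, which encodes a zinc finger factor induced through MAP kinases, stood at 353 CPM in the Nr4a1-positive and 95.03 CPM in the Nr4a1-negative Tregs (1.89, 1.26 to 2.57), and was counted in 23.6% against 6.70% of cells. Bhlhe40, a basic helix-loop-helix factor of activated T cells, stood at 291 against 141 CPM (1.05, 0.46 to 1.64). Both were higher whether cells were thinned or not. Tox, a factor tied to lasting receptor stimulation, was at 191 against 288 CPM (-0.60, -1.17 to -0.04). Its ratio was 0.14, however, when Nr4a1 and Tox were both read from thinned cells. Nr4a3, a close relative of Nr4a1, gave only 14 and 16 counts (0.35, -0.80 to 1.48). The intervals of Myc (0.16, -1.19 to 1.47), Irf4 (-0.12, -1.30 to 0.997) and Id2 (0.17, -0.12 to 0.45) also spanned 0. Of the 12 genes in this group 7 had at least 20 counts, and 5 of them were higher (48.5% over all genes). Of the 7, 2 were at least 1.5-fold higher and 1 at least 1.5-fold lower (14.3% and 16.3% over all genes). The median was 0.17 (0.06 to 0.61 over the alternatives). The related factors Egr2, Egr3 and Nr4a2 had fewer than 20 counts.

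AP-1 subunits and other immediate early genes were higher together in the Nr4a1-positive Tregs. Of 15 measured members 14 were higher (48.5% over all genes). Of the 15, 5 were at least 1.5-fold higher (14.3% over all genes) and none was 1.5-fold lower (16.3% over all genes). Their median ratio was 0.52, and 0.51 in the mean over all draws of thinning to 500 counts. The FOS family gave Fosb at 177 against 68.8 CPM (1.36, 0.55 to 2.21), Fos at 797 against 501 CPM (0.67, 0.34 to 0.99) and Fosl2 at 153 against 55.7 CPM (1.45, 0.56 to 2.40). Their partners of the JUN family gave Jun at 372 against 177 CPM (1.07, 0.55 to 1.601), Junb at 2930.4 against 1996 CPM (0.55, 0.39 to 0.72) and Jund at 1747 against 1448 CPM (0.27, 0.07 to 0.47). Members of both families were thus higher, by the largest ratios for Fosl2 and Fosb. Ier2, an immediate early gene, stood at 453 against 223 CPM (1.02, 0.56 to 1.496) and Klf6, a zinc finger factor, at 993 against 691 CPM (0.52, 0.24 to 0.80). Batf, the AP-1 factor of effector Tregs, was at 124 against 111 CPM, with an interval that spanned 0 (0.16, -0.64 to 0.93), and Ier5 was the single member below 0 (-0.15, -0.66 to 0.35).

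Feedback genes that end a signal lay, as a list, near the shares over all genes. Of 20 measured brakes 11 were higher, 3 at least 1.5-fold (14.3% over all genes), and 2 at least 1.5-fold lower (16.3% over all genes), with a median of 0.15 (-0.11 to 0.38 over the alternatives). Single members differed. Btg2, which recruits the deadenylase that shortens mRNA tails, stood at 529.8 against 288 CPM (0.88, 0.46 to 1.30). Zfp36l1, which binds AU-rich mRNAs and speeds their decay, stood at 2105 against 1360.0 CPM (0.63, 0.43 to 0.83). Dusp1, a MAP kinase phosphatase, was at 3532 against 2802 CPM (0.33, 0.19 to 0.48). The cytokine signal inhibitors did not differ alike. Cish was at 868.6 against 609.5 CPM (0.51, 0.21 to 0.81), though at -0.42 with Nr4a1 and Cish both read from thinned cells. Socs2 was at 243 against 397 CPM (-0.70, -1.21 to -0.22). Rgs1 (-0.19, -0.46 to 0.07) and Rgs2 (-0.04, -0.30 to 0.22), which damp chemokine receptor signals, had intervals that spanned 0.

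Genes of the NF-kB pathway were also higher for the most part. Of 16 measured members 14 were higher (48.5% over all genes). Of the 16, 7 were at least 1.5-fold higher and 1 at least 1.5-fold lower (14.3% and 16.3% over all genes). The median was 0.47 (0.55 in the mean of thinned draws). Nfkbia, which encodes the inhibitor IkBa that NF-kB itself induces, stood at 3875 against 2451 CPM (0.66, 0.52 to 0.81) and was counted in 87.0% against 67.0% of cells. Tnfaip3, which encodes the ubiquitin editor A20, another inhibitor, stood at 1122 against 675 CPM (0.73, 0.46 to 1.01). Cd83, a surface protein induced on activated Tregs, was at 449 against 167 CPM (1.42, 0.92 to 1.95). Rel, the subunit c-Rel needed for Treg development, was at 138 against 59.0 CPM (1.23, 0.33 to 2.17), and Nfkbid, which encodes a nuclear IkB protein, at 167 against 85.2 CPM (0.97, 0.20 to 1.76). The subunit genes Nfkb1 (-0.07, -0.56 to 0.40) and Rela (0.28, -0.81 to 1.35) had intervals that spanned 0, and Nfkb2, of the noncanonical pathway, was at 109.8 against 167 CPM (-0.61, -1.38 to 0.13). The members whose intervals left out 0 were inhibitors and targets, together with Rel.

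**Figure D2:**
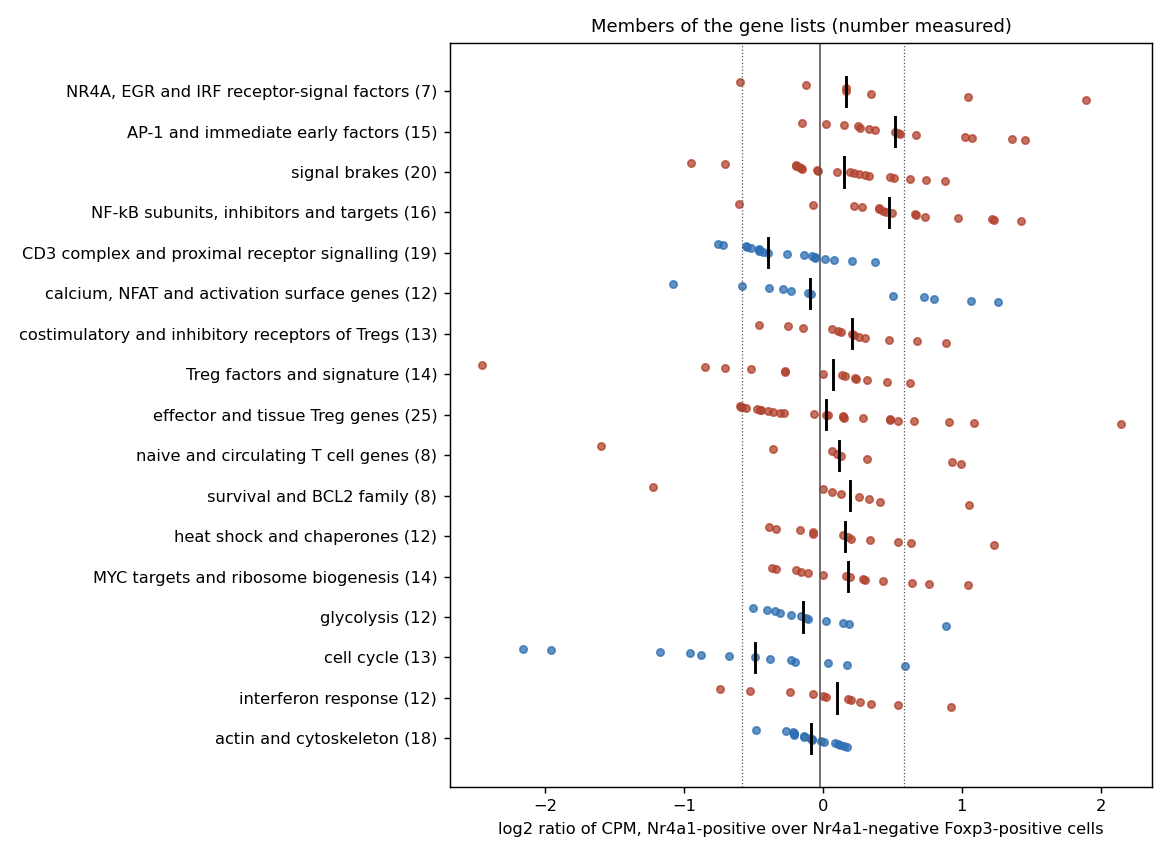
Each point is 1 measured gene of a list, at its log2 ratio of CPM between Nr4a1-positive and Nr4a1-negative Foxp3-positive cells. Black bars are list medians, the grey line is the median of all 4148 genes (-0.02), dotted lines mark 1.5-fold, and red and blue show lists with a median above and below 0. Most points of the AP-1 list (median 0.52) and of the NF-kB list (0.47) lie to the right, and most of the CD3 list (-0.39) and the cell cycle list (-0.49) to the left; Entpd1, with 0 counts in Nr4a1-positive cells, is drawn at its bound.

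Genes of the receptor's own machinery were mostly lower, but few passed 1.5-fold. Of 19 measured genes of the CD3 complex and proximal signalling 4 were higher and 15 lower (48.5% and 51.5% over all genes). Of the 19, 2 were at least 1.5-fold lower (16.3% over all genes). The median was -0.39 (-0.22 in the mean of thinned draws). In 1 thinned draw it was -0.17, and 7 of the 19 were higher. Lck, the kinase that starts the signal, stood at 654 against 937 CPM (-0.52, -0.82 to -0.22). It was counted in 52.8% against 51.2% of cells, and in 1 thinned draw its interval spanned 0 (-0.28, -0.82 to 0.24). Cd5, a surface inhibitor of the receptor, was at 134 against 226 CPM (-0.76, -1.45 to -0.11), Cd3d, a CD3 chain, at 506 against 665 CPM (-0.39, -0.75 to -0.05), and Cd4 at 487 against 655 CPM (-0.43, -0.79 to -0.08). Cd4 was counted in 43.1% against 40.2% of cells, and its ratio was 0.17 in 1 thinned draw and 0.37 with Nr4a1 also read from that draw. With counts capped at 1 per cell the intervals of Lck (-0.13, -0.60 to 0.33), Cd5 (-0.55, -1.39 to 0.24), Cd3d (-0.40, -0.91 to 0.10) and Cd4 (-0.08, -0.60 to 0.44) spanned 0. Cd3g was an exception in the complex, at 592 against 456 CPM (0.38, 0.02 to 0.74), while Cd3e (-0.05, -0.64 to 0.52) and Cd247 (-0.14, -0.48 to 0.20) had intervals that spanned 0. The genes of the calcium and NFAT branch and of surface activation were divided, 5 of 12 higher (48.5% over all genes). Of the 12, 4 were at least 1.5-fold higher and 1 at least 1.5-fold lower (14.3% and 16.3% over all genes). Their median was -0.10 (-0.17 to 0.22 over the alternatives). Gadd45b, an inducible stress and survival factor, was at 754 against 433 CPM (0.80, 0.46 to 1.15), Cd69, an early activation marker that retains T cells in tissue, at 702 against 495 CPM (0.50, 0.17 to 0.84), and Tagap, a GTPase-activating protein of activated T cells, at 109.8 against 45.9 CPM (1.26, 0.24 to 2.33).

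The higher totals of the AP-1 and NF-kB genes were spread over cells. With every cell thinned to 500 counts, at least 3 genes of the AP-1 list were counted in 59.3% of Nr4a1-positive Tregs (exact binomial interval 50.1 to 68.1) and in 34.0% of Nr4a1-negative Tregs (27.6 to 40.8). For the NF-kB list the shares were 35.8% (27.3 to 44.9) and 18.7% (13.6 to 24.6). For the CD3 list they were 52.8% (43.6 to 61.9) and 55.0% (48.0 to 61.9). Before thinning, the AP-1 shares were 87.0% and 70.3%, the NF-kB shares 74.8% and 48.3% and the CD3 shares 88.6% and 90.0%. Gene by gene, thinned detection was 70.7% (61.9 to 78.6) against 49.8% (42.8 to 56.7) for Nfkbia, 61.8% (52.6 to 70.4) against 42.1% (35.3 to 49.1) for Zfp36l1 and 32.5% (24.4 to 41.6) against 14.4% (9.90 to 19.9) for Gadd45b. With the count of a gene capped at 1 in each cell, the ratios of genes counted in most cells were smaller, at 0.03 for Junb and 0.20 for Nfkbia, and the list medians were 0.47 for AP-1 and 0.39 for NF-kB. The intervals of the thinned shares of Nfkbia, Zfp36l1 and Gadd45b do not overlap, whereas the intervals of Egr1 (8.13% against 3.83%), Fos (20.3% against 13.4%) and Cd69 (24.4% against 17.7%) do.

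**Figure D3:**
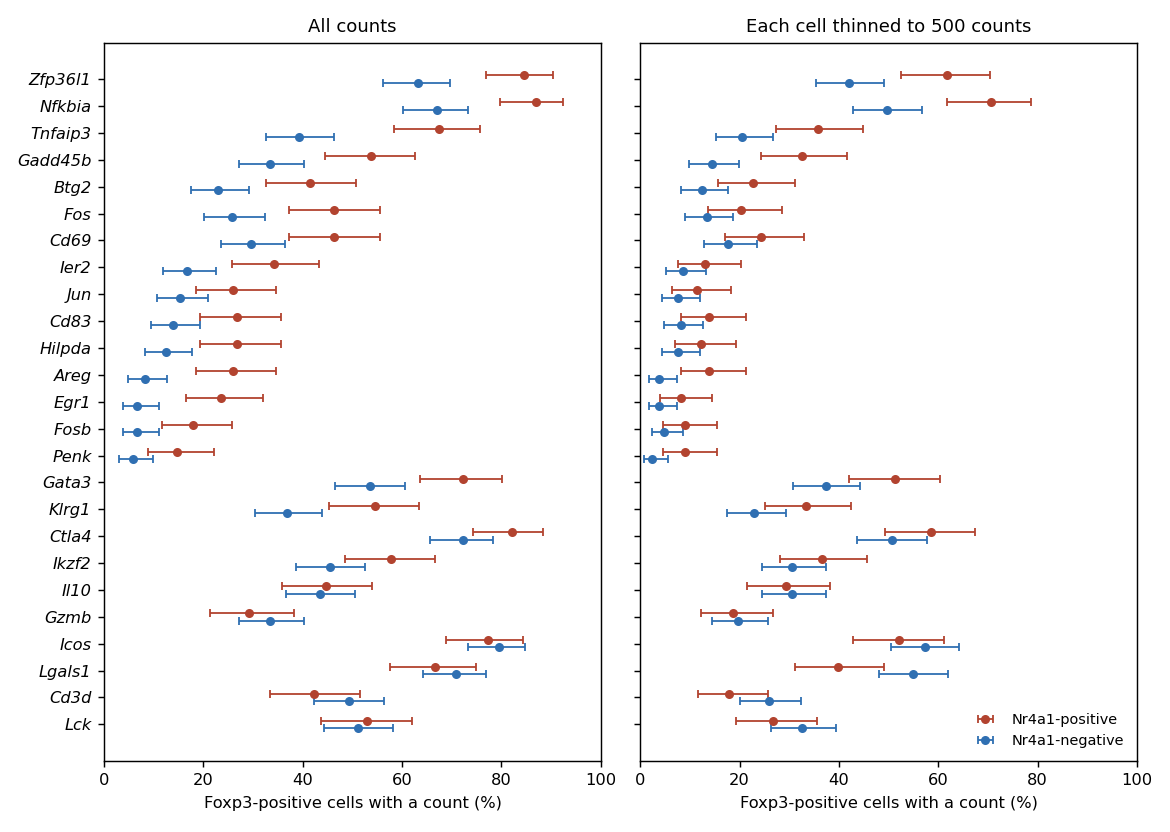
Share of Foxp3-positive cells with at least 1 count of each gene (%), Nr4a1-positive in red and Nr4a1-negative in blue, with exact 95% binomial intervals; left with all counts, right with every cell thinned to 500 counts. Nfkbia, Zfp36l1 and Gadd45b remain apart after thinning, and Il10, Gzmb and Icos overlap in both panels.

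Most Treg receptors and factors had ratios whose intervals spanned 0. Of 13 measured costimulatory and inhibitory receptors 10 were higher (48.5% over all genes), with a median of 0.21. Only 2 were at least 1.5-fold higher, near the share over all genes (14.3%). Tnfrsf4, which encodes OX40, stood at 974 against 701 CPM (0.47, 0.19 to 0.76). Ctla4, the inhibitory receptor most tied to suppression, was at 1976 against 1835 CPM (0.11, -0.08 to 0.29). Il2ra, which encodes an IL-2 receptor chain, was at 329 against 275 CPM (0.26, -0.22 to 0.74) and Tnfrsf9, which encodes 4-1BB, at 644 against 557 CPM (0.21, -0.13 to 0.54), so that 3 intervals spanned 0. Icos was lower, at 1728 against 2058 CPM (-0.25, -0.44 to -0.06), except at 0.05 with Nr4a1 and Icos both read from thinned cells. Of 14 measured Treg factors and signature genes 7 were higher and 7 lower (48.5% and 51.5% over all genes). Their median was 0.07 (-0.27 to 0.22 over the alternatives). Ikzf2, which encodes Helios, was at 964 against 823 CPM (0.23, -0.05 to 0.50), Capg, an actin-capping protein of effector Tregs, at 425 against 609.5 CPM (-0.52, -0.90 to -0.15), and Itgae, the epithelium-binding integrin CD103, at 100.2 against 180.2 CPM (-0.85, -1.65 to -0.10). Entpd1, singled out after its values were seen, encodes the ectonucleotidase CD39. It had 0 counts in the Nr4a1-positive and 24 in the Nr4a1-negative Tregs (13 cells), and with the positive side set to the floor of 3 counts its ratio was at most -2.46. In Foxp3-negative cells it gave 1 against 19 counts (-2.81, -8.18 to -0.15). The signs of Capg (0.34) and Itgae (0.04) turned when Nr4a1 and these genes were both read from thinned cells.

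As a list, effector and tissue Treg genes lay close to the shares over all genes. Of 25 measured members 13 were higher and 12 lower (48.5% and 51.5% over all genes), 4 at least 1.5-fold higher and 2 at least 1.5-fold lower (14.3% and 16.3% over all genes), with a median of 0.02 (-0.14 to 0.07 over the alternatives). The members named here differed singly. Penk (chr4:4133531-4138819, minus strand, mm10), the enkephalin precursor that tissue Tregs are known to express, had the largest ratio among the named genes. It stood at 434 against 98.3 CPM (2.14, 1.53 to 2.79), and 18 of 123 against 12 of 209 cells carried it (14.6% and 5.74%). A single Nr4a1-positive cell held 29 of its 91 counts there (31.9%), and without that cell the ratio was 1.61. With counts capped at 1 per cell the ratio was 1.17 (0.04 to 2.36). The intervals of its shares overlapped, before thinning and after it (8.94%, 4.55 to 15.4, against 2.39%, 0.781 to 5.49). Gata3, a factor of gut Tregs that respond to IL-33, stood at 2057 against 1468 CPM (0.49, 0.29 to 0.68), and Klrg1, a surface receptor of the same Tregs, at 902 against 646 CPM (0.48, 0.19 to 0.78). Areg and Il1rl1, singled out after their values were seen, encode amphiregulin, which supports epithelial repair, and the IL-33 receptor. Areg was at 243 against 115 CPM (1.09, 0.44 to 1.75; 1.66 in the mean of thinned draws) and was counted in 26.0% against 8.13% of cells, and Il1rl1 was at 129 against 68.8 CPM (0.90, 0.03 to 1.80).

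Among the members below 0 were galectin-1 and the S100 genes, calcium-binding proteins of motile effector cells. Lgals1, which encodes galectin-1, stood at 1479.5 against 2225 CPM (-0.59, -0.79 to -0.39). S100a6 was at 1909 against 2602 CPM (-0.45, -0.62 to -0.27). S100a4 (-0.36, -0.58 to -0.14), S100a10 (-0.46, -0.66 to -0.25) and S100a11 (-0.58, -0.90 to -0.27) were lower as well, as was Fgl2, a secreted Treg effector (-0.47, -0.79 to -0.16). All 4 S100 genes of the list were thus lower in CPM. Lgals1 was counted in 66.7% against 70.8% of cells and S100a6 in 76.4% against 77.5%. With counts capped at 1 per cell the intervals of Lgals1 (-0.26, -0.67 to 0.13) and S100a6 (-0.20, -0.58 to 0.18) spanned 0. In 1 thinned draw both stayed below 0, at -0.79 (-1.19 to -0.41) for Lgals1 and -0.46 (-0.80 to -0.12) for S100a6. Il10, the suppressive cytokine, was at 916 against 960.2 CPM (-0.07, -0.34 to 0.20), with ratios of 0.19 in the mean of thinned draws and 0.25 in cells of 800 to 2000 counts. Gzmb, which encodes granzyme B, was at 878 against 793 CPM (0.15, -0.14 to 0.43), and its ratio was below 0 in 3 of 10 alternatives. Neither cytokine nor granzyme differed beyond counting error.

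Levels were also read in Tregs with 0, exactly 1 and at least 2 Nr4a1 counts (209, 43 and 80 cells, with median depths of 1212, 1359 and 1628.5 counts), with exact Poisson intervals. Egr1 was at 95.03 CPM (63.6 to 136), 297 CPM (181 to 459) and 379.7 CPM (285 to 495), so the difference was present with a single Nr4a1 count. The same held for Cd83, at 167, 564 and 394 CPM, and for Nfkbia, at 2451, 3387 and 4107 CPM. Fos was highest with exactly 1 Nr4a1 count, at 501, 1099 and 654 CPM. Another set stood apart from cells without Nr4a1 at 2 or more counts but not at exactly 1, where 43 cells give wide intervals. Penk was at 98.3 CPM (66.3 to 140.3), 119 CPM (51.3 to 234) and 584 CPM (465 to 724), and the 80 cells of the last class include the cell with 29 Penk counts. Gata3 was at 1468, 1515 and 2314 CPM, Areg at 115, 134 and 295 CPM, and Junb at 1996, 2169 and 3291 CPM. For these 4 genes the intervals at 0 and at 1 Nr4a1 count overlapped and those at 0 and at 2 or more did not. Lgals1 was at 2225, 1589 and 1428 CPM and Lck at 937, 772 and 598 CPM.

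**Figure D4:**
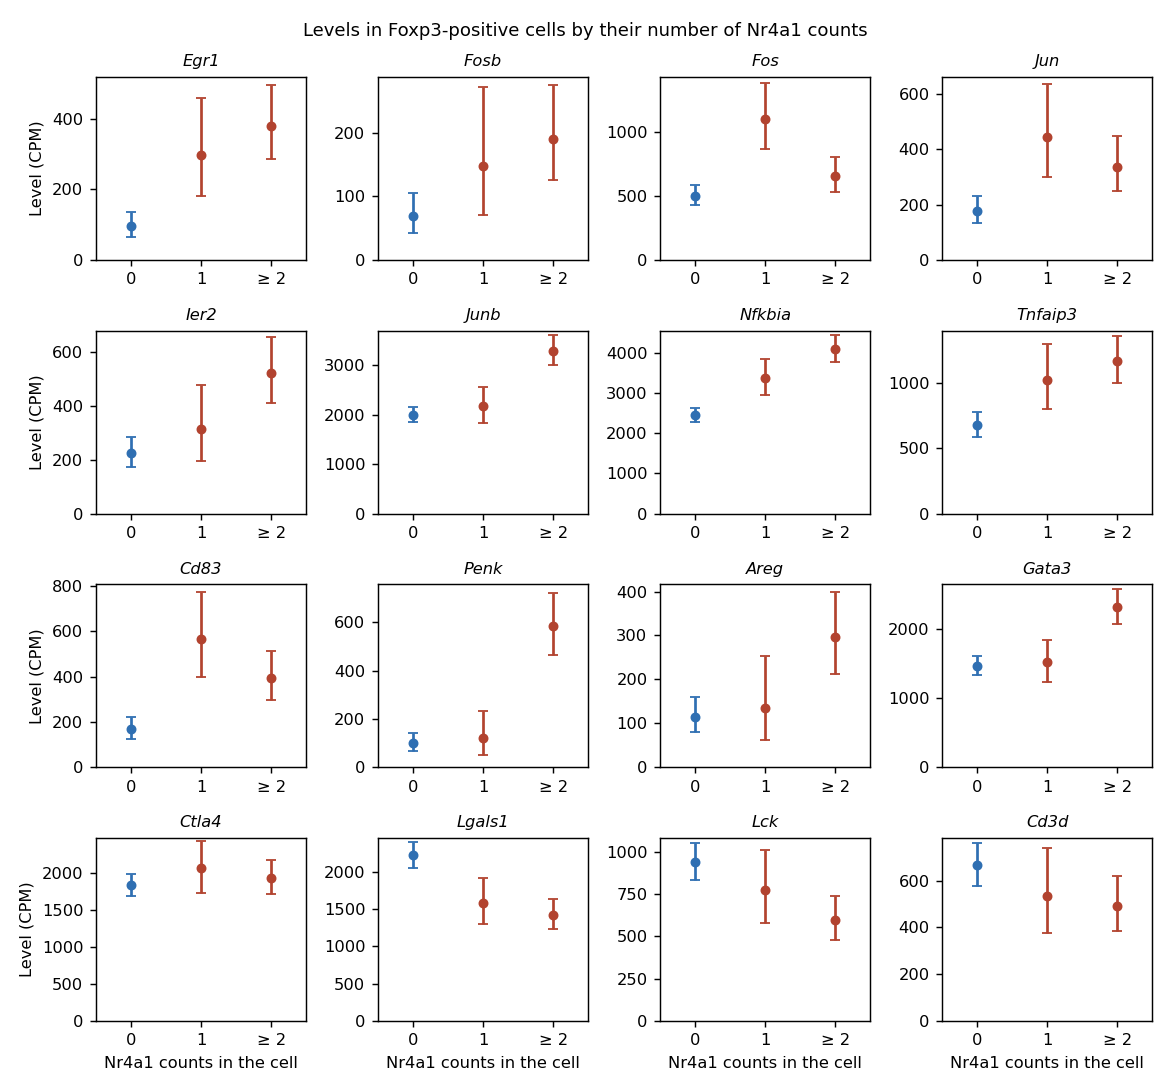
Level (CPM, linear axis from 0) of 16 genes in Foxp3-positive cells with 0 (blue), exactly 1 and at least 2 (red) Nr4a1 counts, with exact 95% Poisson intervals. Egr1, Nfkbia and Cd83 are higher from 1 Nr4a1 count on, whereas Penk (98.3, 119 and 584 CPM), Areg, Gata3 and Junb stand apart at 2 or more; Lgals1 and Lck are lower.

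Genes of the cell's general state were compared as a background to these groups. Of 12 measured heat shock and chaperone genes, which also respond to the handling of cells, 7 were higher (48.5% over all genes), with a median of 0.16. Of the 12, 2 were at least 1.5-fold higher (14.3% over all genes). Hspa5, a chaperone of the endoplasmic reticulum, stood at 749 against 593 CPM (0.34, 0.02 to 0.65) and Hsp90ab1 at 1427 against 1258 CPM (0.18, -0.04 to 0.40), while the inducible Hspa1a and Hspa1b had fewer than 20 counts. Their part in the AP-1 result was not tested. Survival genes were higher in 7 of 8 (48.5% over all genes), with a median of 0.19 (-0.13 to 0.51 over the alternatives). Of the 8, 1 was at least 1.5-fold higher and 1 at least 1.5-fold lower (14.3% and 16.3% over all genes). Among those higher was Pim1, a kinase gene induced by cytokines, at 1885 against 1501 CPM (0.33, 0.13 to 0.53). MYC targets and ribosome biogenesis genes were higher in 9 of 14 (48.5% over all genes), with a median of 0.18. They were led in precision by Npm1, which encodes nucleophosmin, at 826 against 485 CPM (0.77, 0.44 to 1.09). Npm1 has pseudogene copies, and how reads shared with them were counted is not given in the sources used here. Glycolysis genes were higher in 4 of 12 (48.5% over all genes), with a median of -0.14. Slc2a3, a glucose transporter, was at 181 against 98.3 CPM (0.88, 0.15 to 1.62) and Pkm, pyruvate kinase, at 525 against 669 CPM (-0.35, -0.70 to -0.01). Interferon response genes were higher in 7 of 12, near the share over all genes (48.5%), with a median of 0.10 (-0.10 to 0.18 over the alternatives). Igtp, an interferon-induced GTPase, was at 143 against 239 CPM (-0.74, -1.40 to -0.11). A single Nr4a1-negative cell held 17 of the 73 Igtp counts of its side, and without it the ratio was -0.36. Igtp was counted in 14.6% against 16.7% of cells, and with counts capped at 1 per cell its interval spanned 0 (-0.37, -1.28 to 0.49). Actin and cytoskeleton genes were the most precisely measured. Of 18 genes 6 were higher (48.5% over all genes) and none passed 1.5-fold (median -0.09).

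Cell cycle genes were the list furthest below 0. Of 13 measured members 3 were higher and 10 lower (48.5% and 51.5% over all genes). Of the 13, 6 were at least 1.5-fold lower and 1 at least 1.5-fold higher (16.3% and 14.3% over all genes). The median was -0.49 (-0.96 to -0.08 over the alternatives). Mcm6, a subunit of the replicative helicase, stood at 177 against 324 CPM (-0.88, -1.46 to -0.32), and Rrm2, a subunit of ribonucleotide reductase, gave 4 against 26 counts (-2.16, -4.14 to -0.63). Rrm2 was counted in 2 and 6 cells. A single Nr4a1-negative cell held 12 of the 26 Rrm2 counts, and without it the ratio was -1.29. With counts capped at 1 per cell the intervals of Mcm6 (-0.48, -1.33 to 0.32) and Rrm2 (-0.997, -4.34 to 1.49) spanned 0. Few cells were behind these values: at least 5 genes of the list were counted in 6 of 123 and 15 of 209 cells, 4.88% (1.81 to 10.3) and 7.18% (4.07 to 11.6). H2afz, a histone variant gene expressed outside division as well, was higher (0.59, 0.30 to 0.88). Of 18 genes of naive and circulating T cells 8 were measured, and at least 1 of the list was counted in 79.7% and 77.5% of cells. Ccr7 gave 3 against 1 counts and Tcf7 4 against 7, whereas Lef1, a factor of naive T cells, gave 26 against 19 (0.99, 0.09 to 1.93) and S1pr1, the receptor for leaving tissue, 5 against 22 (-1.595, -3.35 to -0.16).

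Among the genes that met the rule given next, those with the highest ratios included the list members Penk, Egr1, Cd83 and Fosb. The 12 highest, by the rule of at least 50 counts, an interval that leaves out 0 and the same sign after thinning, were Penk, Fem1c, Egr1, Hilpda, Ybx3, Rgcc, Cd83, Arhgef3, Fam216a, Fosb, Fam110a and Dynll2. Fem1c, a substrate receptor of a ubiquitin ligase, stood at 196 against 52.4 CPM (1.90, 1.04 to 2.83) and was counted in 17.1% against 6.22% of cells. After thinning its shares were 5.69% (2.32 to 11.4) and 2.39% (0.781 to 5.49), and the intervals overlapped. Hilpda, which inhibits lipolysis at lipid droplets, stood at 325 against 115 CPM (1.501, 0.89 to 2.13; 26.8% against 12.4% of cells), and Ybx3, a cold-shock domain protein that binds RNA, at 239 against 85.2 CPM (1.49, 0.77 to 2.23; 13.8% against 10.5%). Their thinned shares were 12.2% (6.99 to 19.3) against 7.66% (4.44 to 12.1) and 7.32% (3.40 to 13.4) against 2.87% (1.06 to 6.14), again with overlapping intervals. The 12 lowest were Dtx3l, Adipor2, Zc3h18, Dpp3, Ttc9c, Pdcd6ip, Yeats4, Tmem258, Chmp1b, Lamtor2, N4bp2l1 and Prpf38b, at ratios from -1.88 to -1.33. Pdcd6ip, which encodes the ESCRT adaptor ALIX, stood at 109.8 against 318 CPM (-1.53, -2.26 to -0.87; 16.3% against 25.8% of cells), and Lamtor2, a subunit of the complex that anchors mTORC1 to lysosomes, at 85.9 against 233 CPM (-1.44, -2.27 to -0.68). With Nr4a1 and the genes both read from thinned cells, the ratios of Rgcc (-1.03), Fam216a (-1.03) and Dynll2 (-1.39) turned below 0. The ratio of Fem1c was then 0.19, and in cells of 800 to 2000 counts that of Arhgef3 was -0.29. These 24 genes were picked for their ratios, 123 genes met the same rule as higher and 155 as lower, and their values are a description.

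The same division by Nr4a1 was made in the 718 Foxp3-negative cells (173 with and 545 without a Nr4a1 count, median depths 1433 and 1176 counts), which share no cell with the Tregs but can include Tregs in which Foxp3 was not detected. There 962 of 6449 measured genes (14.9%) were at least 1.5-fold higher and 1163 (18.0%) at least 1.5-fold lower. The AP-1 list had 10 of 16 and the NF-kB list 8 of 17 genes at least 1.5-fold higher, beside 14.9% of all genes, with medians of 0.73 and 0.56. By any amount 14 of 16 and 13 of 17 were higher, beside 48.9% of all genes higher and 51.1% lower. Immediate early genes were higher there too. For Egr1 (1.54, 1.05 to 2.04 in Foxp3-negative cells) the difference between Tregs and Foxp3-negative cells was 0.35 on the log2 scale (exact conditional interval -0.47 to 1.19). The difference was not beyond counting error for Fosb (-0.09, -1.13 to 0.98) or Junb (-0.11, -0.32 to 0.10) either. These intervals span 0, which does not show that the ratios are alike. Markers of other cell types also differed by Nr4a1 in the Foxp3-negative cells. Of 11 measured epithelial markers 8 were at least 1.5-fold lower and 3 at least 1.5-fold higher, with a median of -2.81. Of 6 measured stromal and endothelial markers 5 were at least 1.5-fold lower and 1 was higher (median -3.01). All 5 measured myeloid markers were higher, 2 of them at least 1.5-fold. Their part in the differences between the contrasts was not tested.

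Some Treg-associated genes differed between the contrasts. In Foxp3-negative cells Ctla4 was at 1243 against 792 CPM (0.65, 0.46 to 0.84), and the ratio in Tregs was lower by 0.54 (-0.54, -0.81 to -0.27). Il10 was at 561 against 302 CPM in Foxp3-negative cells (0.89, 0.59 to 1.19), and its difference was also negative (-0.96, -1.37 to -0.55). The same direction was found for Il2ra (-0.95, -1.63 to -0.27), Icos (-0.73, -0.996 to -0.46), Ikzf2 (-0.47, -0.88 to -0.05), Pim1 (-0.71, -0.98 to -0.44) and Lck (-0.70, -1.08 to -0.34), and among activation genes for Cd69 (-0.68, -1.12 to -0.25), Gadd45b (-0.78, -1.21 to -0.34) and Nfkbia (-0.51, -0.70 to -0.31). All of these intervals lie below 0, while those of Tnfrsf4 (-0.25, -0.67 to 0.17) and Tnfrsf9 (-0.43, -0.91 to 0.05) span it. The difference was calculated for list members and named genes only, and no share over all genes was counted. Genes outside the lists also had intervals that left out 0, such as Dtx3l (-2.47, -3.95 to -1.13) and Ybx3 (2.23, 1.21 to 3.30). The cell cycle gene Mcm6 was also lower in the Treg contrast (-1.41, -2.10 to -0.73). The cell cycle list had a median of 0.21 in Foxp3-negative cells, 13 of 19 genes being higher (48.9% over all genes there). Penk went the other way. In Foxp3-negative cells it stood at 68.3 against 60.8 CPM (0.17, -0.69 to 0.97), and the ratio in Tregs was higher (difference 1.96, 0.93 to 3.04). The Treg cell with 29 Penk counts is included in that difference. Differences above 0 were also found for Npm1 (0.80, 0.39 to 1.22), Gata3 (0.31, 0.05 to 0.57), Btg2 (0.54, 0.04 to 1.04) and Lef1 (2.13, 0.87 to 3.46). In Foxp3-negative cells 8 of 17 naive T cell genes were at least 1.5-fold lower in the Nr4a1-positive cells (18.0% over all genes there), with a median of -0.56.

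**Figure D5:**
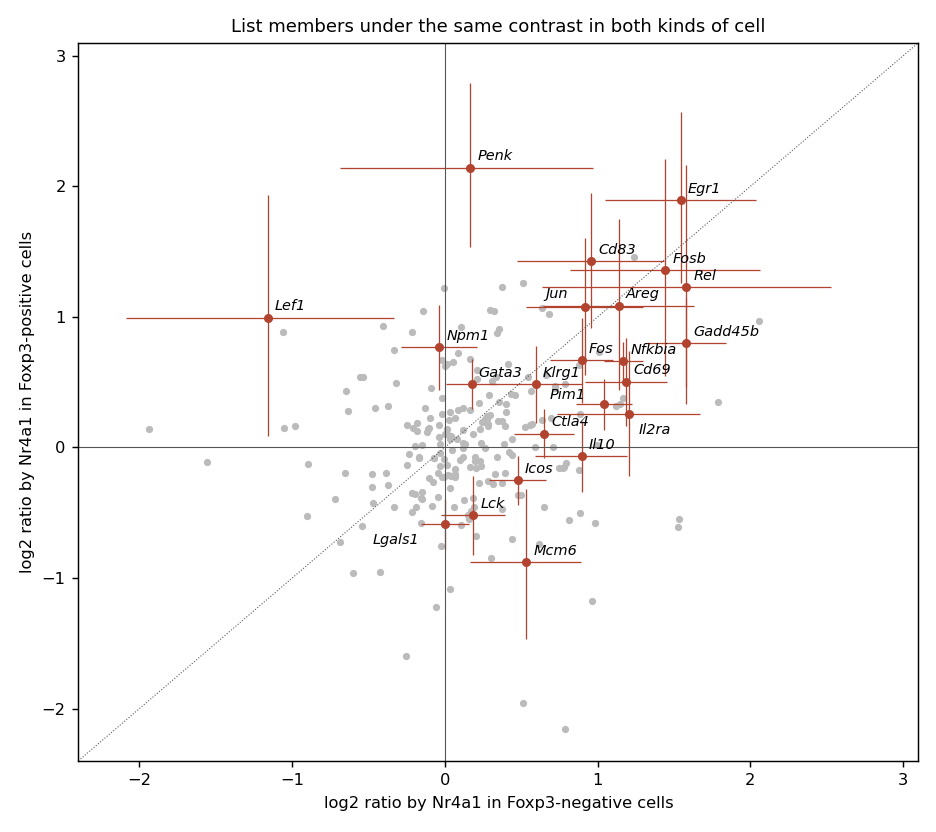
Log2 ratio of CPM by Nr4a1 for every measured list member, in Foxp3-negative cells (horizontal axis) and Foxp3-positive cells (vertical axis), with exact 95% intervals for the 23 genes labelled in red and the diagonal dotted; Entpd1 lies outside the axes. Egr1, Fosb and Fos lie near the diagonal, Penk (2.14 against 0.17) and Lef1 above it, and Il10, Ctla4, Icos, Il2ra and Mcm6 below it.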

How the data were processed

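CD4 T cells of 4 samples in 1 group were profiled, and the authors deposited raw counts of each gene in each barcode as 1 table, made with TopHat2 and SAMtools on build mm10 per the submitters' processing notes, which give no versions. The counter, the use of molecular identifiers and any barcode filter were not stated. The barcodes name no sample, so no test over samples could be run. No value column was left unused (0 columns of unmatched samples).

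Counts were summed per side and scaled to CPM with Python 3.11.15, numpy 2.4.6, scipy 1.17.1 and pandas 2.3.3. Ratios carry exact conditional 95% intervals (Clopper-Pearson on the split of a gene's counts), shares exact binomial ones. A side of 0 was set to 3 counts (14.3 CPM in Nr4a1-positive, 9.83 CPM in Nr4a1-negative Tregs), a bound, and no ratio was given where both sides held at most 3. Measured genes had at least 20 counts over both sides. Thinning to 500 counts followed gating (1 seeded draw, and the exact mean over all draws). The calculation of ratios was tested on simulated data. Scrublet (scanpy 1.11.5) called 9 cells doublets (0.857%), 2 Nr4a1-positive and 3 Nr4a1-negative Tregs, which were kept and left out as an alternative.

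The rule for named genes takes the 12 highest and the 12 lowest ratios as described in the text, all measured NR4A, EGR and IRF factors, up to 4 members of each other list by ratio over interval width, and 12 Treg markers. Other genes named, such as Areg, Il1rl1, Entpd1, Fosl2, Jund, Nfkbid, Cd3g and Fgl2, were chosen after their values were seen. Values of some list genes are not reported here. The members and the 17 gene lists were chosen with earlier results of these data known. Of 25724 symbols, 25033 (97.3%) matched GENCODE vM21. Alternatives changed the gates, depth, count minimum, fold, capping of counts at 1 per cell and cells left out.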

Additional observations from a re-analysis of the deposited data

How the results depend on the processing

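Over 11 alternatives the median of the AP-1 list ran from 0.43 to 0.58, NF-kB from 0.39 to 0.89, CD3 from -0.43 to -0.17 and cell cycle from -0.96 to -0.08. Medians nearer 0, those of the signal brakes, calcium and NFAT, Treg factor, effector Treg, naive, survival and interferon lists, crossed it in some. Of 102 named genes, 69 kept their sign in every alternative that gave a value. Counts of genes past a fold moved with the minimum and the fold. With at least 10 counts, 1168 genes were higher and 1389 lower of 6311, with at least 50 counts 137 and 178 of 1790, and at 2-fold 229 and 276. The Nr4a1-positive share was 22.6% when read from thinned counts. In 1 alternative Nr4a1 and the compared genes were both read from 1 thinned draw. There Rgcc (-1.03), Fam216a (-1.03), Dynll2 (-1.39), Tox (0.14), Ltb (-0.81), Itgae (0.0398), Bcl2l1 (-0.45) and Fbl (-0.03055), which had been past 1.5-fold, changed sign. So did Fbl in 1 thinned draw (-0.00069), Arhgef3 (-0.29) and Klf3 (-0.71) in cells of 800 to 2000 counts, Klf3 without cells holding other cell types' markers (-0.35), and Lag3 with at least 2 Nr4a1 counts (-1.22). Genes below 1.5-fold also changed sign, among them Capg (0.34), Cd4 (0.37), Cish (-0.42) and Icos (0.05) with Nr4a1 and the gene both read from thinned counts. The cause was not tested. No paired analysis was possible because the table pools the samples of 1 group, and for the same reason no replicate could be left out. Depth limits single genes most: the median interval of a measured gene reached 0.97 to either side on the log2 scale.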

Other observations

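Genes that were higher in Nr4a1-positive Tregs were not always counted in the same cells. Of the 123 Nr4a1-positive Tregs, 18 held Penk, 32 held Areg and 7 held both. Egr1 and Fosb were counted together in 10 cells, Egr1 alone in 19 and Fosb alone in 12. Penk and Egr1 met in 3 cells. Areg lay largely within cells that held Gata3: 30 of the 32 Areg-positive cells also had a Gata3 count, as did 59 of the other 91 cells, and among Nr4a1-negative Tregs 15 of 17 Areg-positive cells did. Il10 and Gzmb were counted together in 21 of 123 Nr4a1-positive and 40 of 209 Nr4a1-negative Tregs. A pair of genes is counted together more often in deeper cells, and these numbers are given without a comparison between the sides.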
